A study of Mus musculus with 24 samples.

Results

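Premethylated and unmethylated copies of the same 61 DNA fragments were compared in mouse embryonic stem cells (ESCs), to measure how far the methylation state a fragment carried at insertion could still be told from its methylation 12 days later. The comparison took 3 of the 24 samples of the series, and all fragments and CpGs with at least 10 reads in both conditions, which gave 1438 of the 1466 fragment-and-CpG pairs with any read. The fragments are copies of FR1, a bacterial DNA fragment of intermediate CpG content that carries a transcription factor motif between short barcodes at its centre, either intact (WT) or scrambled (Sc). By the study's design scrambling kept the CpGs of a motif in number and place, but the tables list 3 motif CpGs for ZF5 with its WT sequence and 2 with its Sc sequence. 30 WT fragments, 30 Sc fragments and 1 fragment without motif were compared, and of the 62 fragments in the tables only the Sc fragment of c-REL dropped out, with a median of 2 reads per upstream CpG in one condition and 82 in the other.

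The plasmids were mixed and inserted into the β-globin locus of TC-1 ES cells (strain C57BL/6 X 129S5) by Cre-mediated cassette exchange. In the +SssI condition the mixture was methylated in vitro with the bacterial CpG methyltransferase M.SssI before transfection, and in the −SssI condition it was not treated. The cells were selected for the exchange, and the pool of surviving cells was collected after 12 days, so that each condition is a pool of many insertion events at a single locus and not a set of lines. No sample of the plasmids at insertion was analysed here, and the starting states are those given in the study's methods. The −SssI pool is listed as 2 samples that share a single table and the +SssI pool as 1 sample, so there is 1 pool per condition. The reads of a pool are listed in numbered sets, here called runs. Per the study's methods biological and technical replicates were pooled, but no label says which runs are which. The comparison therefore has no replicates that could be told apart.

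DNA methylation in mammals is copied to the new strand at each replication by DNMT1, and is set on unmethylated DNA by DNMT3A and DNMT3B. It is lost when copying fails, or when TET enzymes oxidize the methylated base. CpG-rich foreign DNA that is not bound by activators tends to be methylated in ESCs, while a bound factor such as CTCF can keep its surroundings unmethylated. A fragment whose state is copied faithfully keeps a high level in the +SssI condition and a low one in the −SssI condition. One that gains or loses methylation until it reaches a common level ends with the same value in both.

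Reads covered 18 CpGs upstream and 5 downstream of the motif and, in some fragments, up to 3 CpGs within it. The total over CpGs was 486399 reads in the +SssI condition and 484027 in the −SssI condition, with 13 to 1664 and 11 to 2521 reads at a compared CpG. The percentage of methylated reads was averaged over the CpGs of each fragment to give its methylation level, and the gap is the level in the +SssI condition minus that in the −SssI condition, in percentage points. A 95% Newcombe interval of the gap was computed from the fragment's median read number, since CpGs of 1 amplicon are read on the same molecules. The upstream and downstream CpGs come from separate amplicons, which this single number does not tell apart, and with the fragment's lowest read number 22 intervals lay above 0 in place of 24. It reached between 3.43 and 23.9 points to either side, and covers counting error only.

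After 12 days the Sc fragments had a methylation level of 67.7 ± 10.7% in the +SssI condition and 56.5 ± 17.2% in the −SssI condition (mean ± SD over 30 fragments). Their gap was 11.1 points on average, with a median of 6.43 and a range from −19.5 to 57.9. The WT fragments had lower levels, 51.4 ± 20.6% and 48.0 ± 22.7%, and a mean gap of 3.46 points, with a median of 1.32 and a range from −46.1 to 40.9. The fragment without motif had 62.8% and 59.0%, a gap of 3.89 points (interval −6.71 to 14.96). Both sets thus ended at intermediate levels from either start, with mean gaps far below the one that complete methylation in vitro would give at insertion.

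The gap was positive in 21 of 30 Sc and 15 of 30 WT fragments. Its interval lay above 0 in 13 Sc and 11 WT fragments, below 0 in 6 of each, and held 0 in 11 Sc and 13 WT fragments and in the fragment without motif. The gap was within 10 points of 0 in 13 fragments of each kind. It exceeded 20 points in 11 Sc and 7 WT fragments, and was under −20 points in 3 WT fragments and in no Sc fragment.

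**Figure D1:**
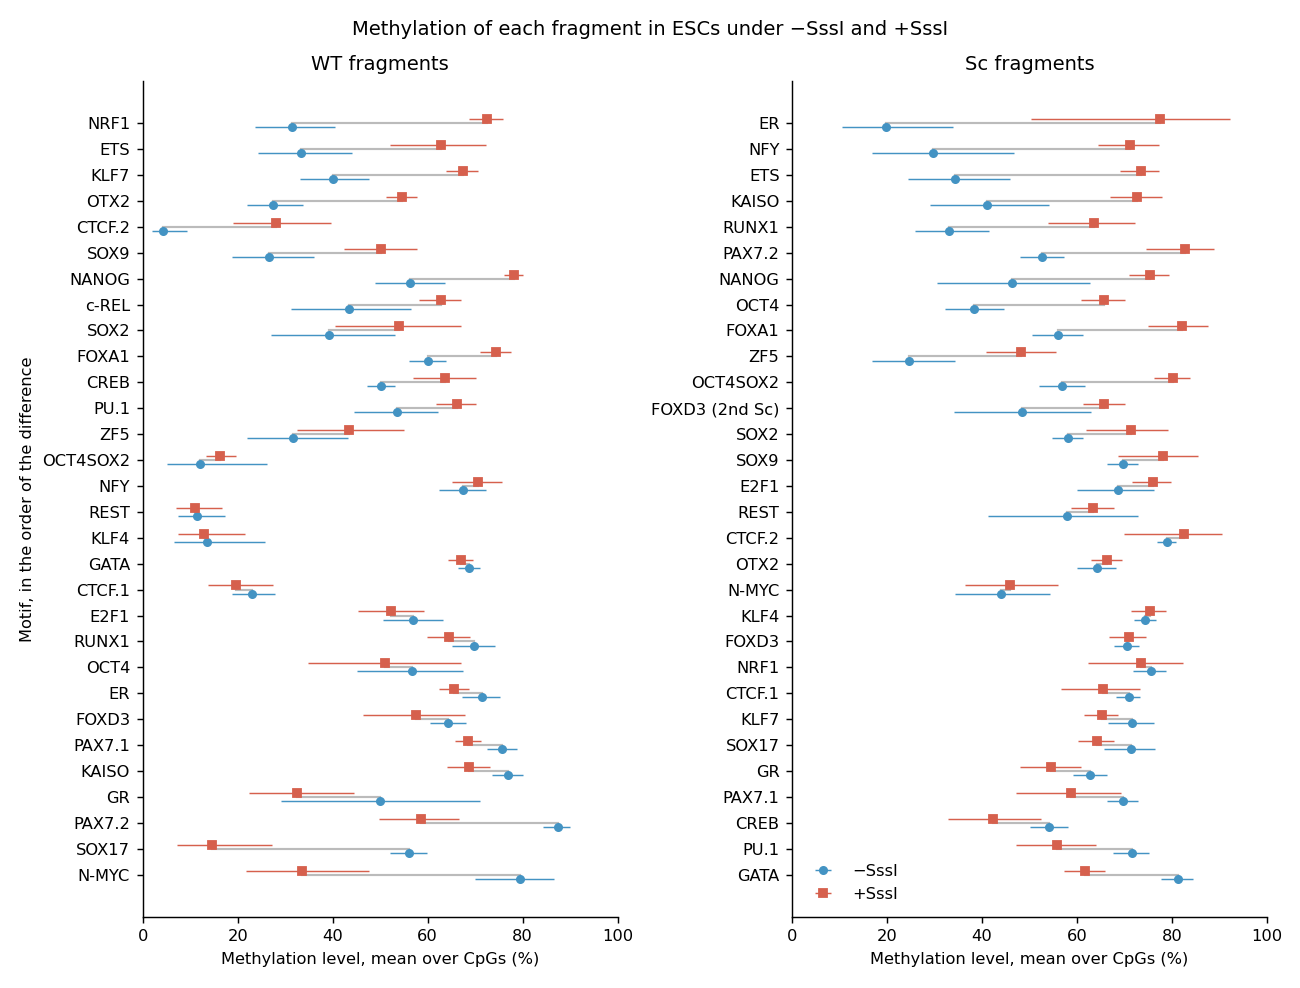
Methylation level (%, mean over CpGs) of each fragment in the −SssI (circles) and +SssI (squares) conditions, with 95% Wilson intervals at the fragment's median read number, for WT (left) and Sc (right) fragments in the order of their gap. The −SssI levels spread from 19.7% to 81.3% over Sc fragments, while the +SssI levels stay between 42.3% and 82.8%.

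Among single CpGs, 585 of 1438 were more methylated in the +SssI condition (40.7%) and 313 less (21.8%), where a call needed 10 points and 0.05 as the largest adjusted p (Fisher's exact test on the reads, Benjamini-Hochberg adjustment). 1016 CpGs had an unadjusted p under 0.05. Sc fragments held 315 higher and 141 lower CpGs of 709, WT fragments 264 and 171 of 705, and the fragment without motif 6 and 1 of 24. This test treats every read of a pool as a separate molecule. With the run as the unit, a quasi-binomial test called 0 CpGs higher and 0 lower of the 1295 that could be tested. It left 93 at an unadjusted p under 0.05, and the reads behind a CpG came from 3 to 9 runs (median 5). The differences at single CpGs were therefore larger than the sampling of reads gives, and none was called against the spread between runs. 3 or more called CpGs in a row over more than 50 bp, all higher in the +SssI condition, were found in 17 Sc and 13 WT fragments and in the fragment without motif, and such a region of lower methylation in 5 Sc and 5 WT fragments.

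The runs touch every value given here. The −SssI pool has 8 runs and the +SssI pool 5, and which are biological or technical repeats is not stated. In the −SssI condition, run 1 gave 37.7% of the upstream reads at a mean methylation of 79.1%, and run 5 gave 29.8% at 79.0%. Run 4 gave 15.3% of them at 32.6% methylation, and run 7 13.5% at 61.5%. In the +SssI condition run 5 gave 60.6% of the upstream reads at 73.6% methylation, run 7 16.7% at 64.6%, run 4 11.7% at 37.1%, and run 6 8.60% at 66.4%. Within each pool, run 4 was thus far less methylated upstream than run 5. The read numbers per fragment of −SssI runs 1 and 5 showed no detectable difference beyond sampling noise (chi-square of 65.3 on 56 degrees of freedom, p = 0.184), while every other pair of runs within a pool that was compared differed, so these 2 runs may be repeats of 1 sample. With their reads counted once, the mean gap of Sc fragments was 13.7 points. Without −SssI run 4 the mean gap was −3.06 points in Sc and −8.86 in WT fragments, without +SssI run 5 it was 5.68 and −3.19, and without +SssI run 4 14.4 and 13.7.

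The fragments did not come from the same runs. Of the Sc fragments, 14 took at most 50% of their −SssI upstream reads from runs 1, 2 and 5, and these had a median gap of 26.8 points, positive in 13. The other 16 Sc fragments took more than that, and had a median gap of −0.825 points, positive in 8. Among WT fragments the same division gave a median gap of 17.0 points in 16 fragments, positive in 12, and −5.48 points in 14 fragments, positive in 3. Across fragments, the share of −SssI reads from these runs had a Pearson r of 0.833 (30 Sc) and 0.747 (30 WT) with the −SssI level, and of −0.733 and −0.411 with the gap. These fragments share pools and runs, and the values are descriptions. The part of the runs in the gap was not tested.

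Compared within runs of the same number, the gap depended on the run. In run 4 of both pools, 25 Sc fragments had 60.4% in the +SssI condition and 37.8% in the −SssI condition, a mean gap of 22.6 points with 16 of 25 positive, and 24 WT fragments had 37.4% and 32.7%, a mean gap of 4.73 points and a median of −3.26, with 10 of 24 positive. In run 5, 18 Sc fragments had 76.2% and 77.6%, and 15 WT fragments 71.7% and 72.2%, mean gaps of −1.41 and −0.509 points. The CpGs behind these means differed, since run 5 held almost no downstream CpGs. Over upstream CpGs the Sc gap had a median of −1.38 points in run 4, positive in 8 of 17 fragments, and of −2.63 in run 5, positive in 7 of 18, with means of 8.67 and −1.15. Whether a run number marks the same batch in both pools is not stated.

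The same CpGs could be compared in both runs in 28 fragments, over 455 CpGs, 414 of them upstream. Of these fragments, 5 had a positive gap in both runs, 8 a negative gap in both, 12 a positive gap in run 4 and a negative one in run 5, and 3 the reverse. The 9 Sc fragments with upstream CpGs among them had 50.9% and 40.1% in run 4, a mean gap of 10.8 points with a median of 0.0287, and 75.0% and 77.9% in run 5, a mean gap of −2.93 with a median of −2.96. Without KLF4 Sc the means of the other 8 were 2.71 and −1.03 points, so that 1 fragment set most of the difference between the runs. The 13 such WT fragments had mean gaps of 1.71 points in run 4 and 0.199 in run 5. In these 9 Sc and 13 WT fragments the levels themselves stood far apart between the runs. The distance was more than 20 points on average in either condition and either kind of fragment. Over all 12 Sc fragments with common CpGs the +SssI levels were nearer, 61.9% in run 4 and 73.2% in run 5. The Sc fragment of PAX7.2 had intervals above 0 in both runs, with gaps of 77.2 points in run 4 over 5 CpGs and 15.7 in run 5 over 18 others. PAX7 is a paired-box factor of muscle progenitors.

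**Figure D2:**
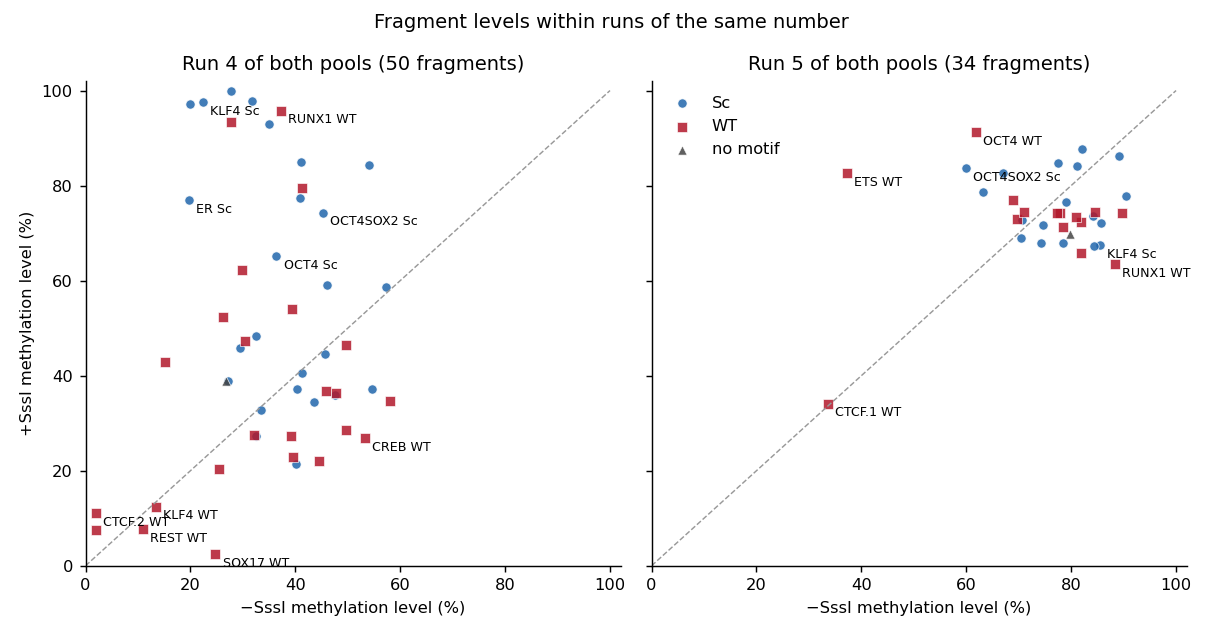
Level of each fragment (%) in the +SssI against the −SssI condition within run 4 (left, 50 fragments) and run 5 (right, 34 fragments). Each point is 1 fragment and the dashed line marks equal levels. In run 4 Sc fragments average 60.4% and 37.8%, mostly above the line, and in run 5 76.2% and 77.6%, close to it, but the CpGs behind a fragment differ between the panels.

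The order of the CpGs along FR1 was alike in both conditions. The mean level of a CpG over Sc fragments in the +SssI condition had a Pearson r of 0.905 with that in the −SssI condition over the 23 CpGs outside the motif, and 0.848 over WT fragments. The points share pools and neighbouring CpGs, so this describes the profile only. In Sc fragments the CpG at −103 had 84.2% and 71.4%, and that at −208 45.6% and 38.6%.

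The gap was larger downstream of the motif. At 37, 46, 109 and 151 bp it averaged 18.4, 19.6, 18.2 and 23.2 points over Sc fragments, and 25.0, 20.3, 9.83 and 16.2 points over WT fragments. At 252 bp it was 4.896 and 7.17 points. At the 18 upstream CpGs it lay between 0.172 and 19.3 points over Sc fragments and between −4.79 and 4.44 points over WT fragments. Per fragment the gap averaged 9.52 points upstream and 16.9 downstream over 30 Sc fragments, and 0.318 and 15.7 over WT fragments, 29 of which had downstream reads.

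The downstream reads of the −SssI condition came mainly from run 4 (46.3%, at 34.5% methylation) and run 7 (45.0%, at 59.8%), with 1.84% from run 5. In the +SssI condition run 5 gave 42.0% of them at 59.2%, and run 4 38.8% at 52.5%. Within run 4 the downstream gap averaged 25.9 points over 21 Sc fragments and 18.6 over 22 WT fragments, against 8.67 points over 17 Sc and −3.02 over 22 WT fragments upstream. Inside this run, too, the mean gap was larger downstream than upstream, but the 2 means were not taken over the same fragments. Some Sc fragments had only downstream CpGs here, such as PAX7.2 with a gap of 77.2 points over 5 CpGs. In run 5 only 5 fragments had enough downstream reads in both conditions, and their gap averaged −15.3 points there.

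**Figure D3:**
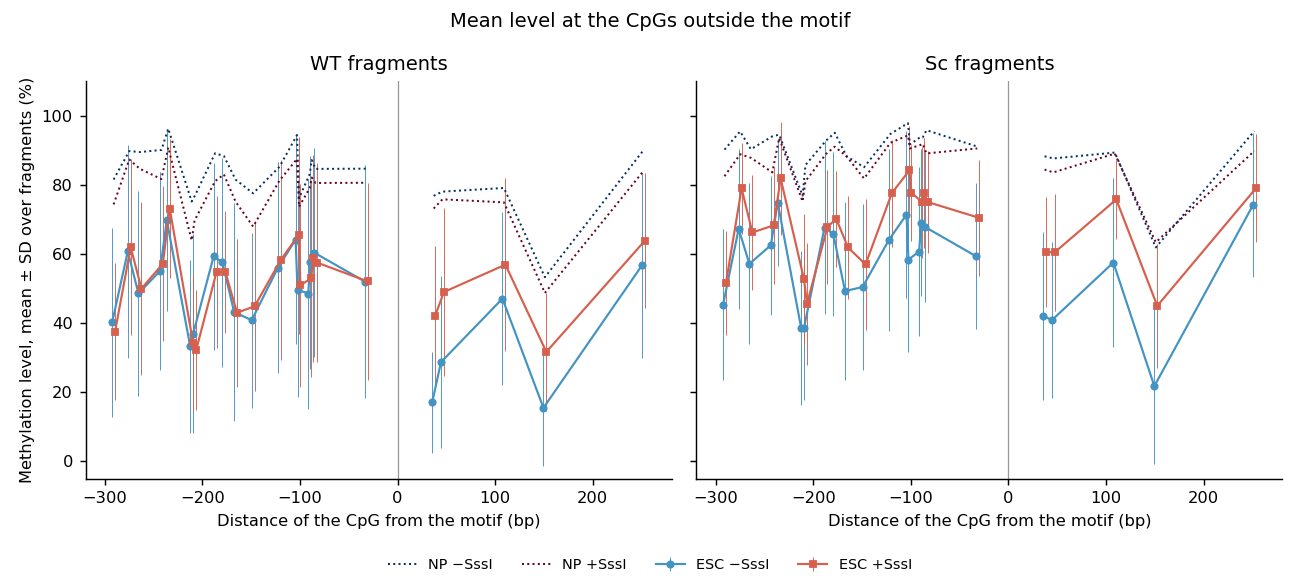
Mean methylation level (%) of each CpG outside the motif over WT (left) and Sc (right) fragments against its distance from the motif (bp), in the −SssI and +SssI conditions, with error bars of 1 SD over fragments, and dotted lines for NPs. In both panels the ESC profiles rise and fall together, and the WT profiles lie apart mainly at 37 to 151 bp downstream.

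The zinc finger motifs held the fragments with the lowest methylation in either condition. REST, the repressor of neuronal genes in non-neuronal cells, had 10.97% with its WT motif in the +SssI condition and 11.5% in the −SssI condition, a gap of −0.509 points (interval −7.52 to 6.49) from 163 reads each. A premethylated and an unmethylated REST fragment thus ended at the same low level within the counting error. KLF4, a Krüppel-like factor of the pluripotency network, had 12.9% and 13.4% with its WT motif (gap −0.543, interval −14.0 to 10.6), and CTCF.1, a motif of the insulator protein CTCF, 19.7% and 23.0% (gap −3.32, interval −10.98 to 5.45). Run 4 gave 70.9% of the REST WT upstream reads in the +SssI condition and 97.6% in the −SssI condition. For KLF4 WT it gave 95.3% and 100%. CTCF.1 WT had 7.61% and 2.00% in run 4, but 34.1% and 33.6% in run 5. The part of the runs in these low levels was not tested.

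The second CTCF motif differed in the pools. CTCF.2 WT had 28.1% in the +SssI condition and 4.23% in the −SssI condition, a gap of 23.9 points (interval 13.4 to 35.6) with 17 of 24 CpGs higher and none lower. In run 4 alone the same fragment had 11.1% and 2.04%, a gap of 9.08 points (interval 0.242 to 26.9). At the CpG inside the motif it had 11.9% of 202 reads and 0% of 282 reads, and a count of 0 allows up to 3 reads. CTCF.1 had 1.90% and 0.282% at its motif CpG, and REST 2.96% and 0%, neither of which was called.

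The Sc fragments of these motifs stood higher in both conditions, with no common gap. CTCF.1 Sc had 65.5% and 70.9% (gap −5.39, interval −14.5 to 2.85), but its gap was positive within each run, 15.9 points in run 4 and 7.29 in run 5, with intervals that held 0. CTCF.2 Sc had 82.6% and 78.9% (gap 3.65, interval −9.07 to 11.9). REST Sc had 63.4% and 57.8%, with 59.9% and 66.1% upstream and 80.2% and 32.8% downstream. KLF4 Sc had 75.3% and 74.4%, a gap of 0.907 points that joined opposite values in its runs. In run 4 it had 97.5% and 22.4%, with 24 of 24 CpGs higher, and in run 5 67.4% and 85.5%, with 14 of 24 CpGs lower. Over the 7 zinc finger motifs, the mean gap was 7.196 points for WT and 7.68 for Sc fragments, with 59 of 171 WT CpGs higher and 27 lower, and 62 of 170 Sc CpGs higher and 34 lower. Over all WT fragments 37.4% of CpGs were higher and 24.3% lower, so the share of higher CpGs at these WT motifs was near that of all. KLF7, a Krüppel-like factor of neurons, reached 67.4% and 40.2% with its WT motif, a gap of 27.2 points. Of its upstream reads, 99.7% came from run 5 in the +SssI condition and 77.0% from run 4 in the −SssI condition. Within run 5 its gap was −7.16 points (interval −19.95 to 14.2), and within run 4 38.3 over 6 CpGs. KAISO, a zinc finger protein that binds methylated DNA, had 72.7% and 40.9% with its Sc motif, a gap of 31.8 points. Run 4 gave 3.22% of its upstream reads in the +SssI condition and 96.3% in the −SssI condition. Within run 4 its gap was 36.5 points over 7 CpGs.

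The composite OCT4SOX2 motif, bound by the pluripotency factors OCT4 and SOX2 together, had 16.2% in the +SssI condition and 12.1% in the −SssI condition with its WT sequence (gap 4.08, interval −10.4 to 11.9). Of the WT upstream reads, run 4 gave 0.528% in the +SssI condition and 86.7% in the −SssI condition, which had a median of 37 reads. The WT gap was 9.24 points upstream and −14.5 downstream. The Sc fragment of this motif had 80.3% and 56.9%, a gap of 23.4 points (interval 17.1 to 29.6), with 21 of 23 CpGs higher and none lower. This Sc gap was positive in both runs, 29.0 points in run 4 (interval −3.20 to 51.0) and 23.7 in run 5 (interval 15.1 to 32.5). Single cell lines with the same inserts, named by the file headers, gave 82.0% for the premethylated and 71.8% for the unmethylated Sc insert, a gap of 10.3 points with 11 of 23 CpGs higher and 1 lower, and each was 1 line. The WT line without premethylation had 16.1%.

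The separate motifs of this group did not share a direction. SOX2 WT had 54.0% and 39.3%, a gap of 14.7 points (interval −4.68 to 32.6), all from run 4 with a median of 50 reads in each condition. SOX2 Sc had 71.3% and 58.0%, a gap of 13.3 points (interval 3.26 to 21.9). Run 5 gave 97.0% of its +SssI upstream reads, but runs 1, 2 and 5 together gave 2.22% of the −SssI ones. Most −SssI reads came from run 7, with a median of 805 reads at 58.5% methylation. Within run 5 its gap was 2.10 points (interval −19.1 to 33.5), with a median of 10 reads in the −SssI condition. OCT4 WT had 51.0% and 56.7% (gap −5.66, interval −25.2 to 14.1), which joined −22.5 points in run 4 (interval −49.1 to 8.98) and 29.4 in run 5 (interval 0.782 to 51.5). OCT4 Sc had 65.6% and 38.2%, a gap of 27.4 points with 21 of 23 CpGs higher. SOX17, the endoderm SOX factor, had the lowest +SssI level of the group with its WT motif, 14.6%, against 56.0% in the −SssI condition, a gap of −41.4 points (interval −49.7 to −28.2). In run 4 it had 2.41% and 24.8%, a gap of −22.4 points (interval −34.8 to −8.01). The premethylated fragment thus ended below the unmethylated one upstream, within run 4 as in the pools. The run 4 comparison held 18 CpGs, all upstream. Downstream the pooled levels were alike, 45.5% and 47.0%. Run 4 gave 77.0% of the upstream reads in the +SssI condition and 9.51% in the −SssI condition. Over the 6 SOX, POU and NANOG motifs, the mean gap was 15.8 points for Sc and 2.87 for WT fragments, and 86 of 138 Sc CpGs were higher and 13 lower, against 60 and 32 of 138 WT CpGs. Over all Sc CpGs 44.4% were higher and 19.9% lower, and over all WT CpGs 37.4% and 24.3%.

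NRF1, an activator of housekeeping and mitochondrial genes whose binding is known to be blocked by methylation, had the largest WT gap. Its WT fragment had 72.5% in the +SssI condition and 31.5% in the −SssI condition, a gap of 40.9 points (interval 31.2 to 49.5), with 23 of 25 CpGs higher and none lower. At its 2 motif CpGs it had 67.5% and 91.8% against 27.3% and 60%. Its Sc fragment had 73.5% and 75.5% (gap −2.00, interval −13.6 to 7.47). Of the WT reads upstream, 99.7% came from run 5 in the +SssI condition and 78.0% from run 4 in the −SssI condition. In run 5 alone the WT fragment had 74.1% and 77.2% (interval of the gap −17.0 to 20.2, with a median of 18 reads in the −SssI condition), and in run 4 93.3% and 27.7% over 5 CpGs with a median of 11 and 35 reads. The part of the runs in this gap was not tested.

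The other promoter factors ranged widely. N-MYC, a MYC-family activator of growth genes, had the lowest WT gap of all fragments, −46.1 points (interval −59.7 to −29.0), with 33.5% and 79.5%. All its upstream reads in the +SssI condition, but none in the −SssI condition, came from run 4. ETS, the motif of a family of activators with the same name, had 62.8% and 33.4% with its WT motif (gap 29.4) and 73.4% and 34.3% with its Sc motif (gap 39.1), so that both sequences were higher in the +SssI condition, and the difference between these gaps was −9.71 points (interval −28.2 to 8.39). In run 4 the ETS WT gap was 16.9 points (interval −2.02 to 34.7) and in run 5 45.4 (interval 14.6 to 68.1). NFY, the CCAAT-box factor, had 71.3% and 29.6% with its Sc motif, a gap of 41.6 points. Run 4 gave 93.9% of the −SssI upstream reads of NFY Sc and 76.6% of those of ETS Sc. It gave 0% of the +SssI upstream reads of either. Within run 4 their gaps were 30.3 points over 5 CpGs and 58.0 over 6. CREB, the cyclic AMP response factor, had 42.3% and 54.2% with its Sc motif, a gap of −11.9 points. With its WT motif it had 63.7% and 50.2%, a gap of 13.5 points (interval 6.05 to 20.6). Within run 4 the CREB WT gap was −26.4 points (interval −46.3 to 3.82), and within run 5 3.33 (interval −11.3 to 15.5). Over the 6 motifs of this group the mean gap was 6.06 points for WT and 12.7 for Sc fragments.

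Among the remaining fragments with the most extreme gaps, the estrogen receptor (ER) motif had the largest of all with its Sc sequence, 57.9 points (interval 27.3 to 75.2), with 77.6% and 19.7%. It rested on a median of 13 and 43 reads, all from run 4 upstream. OTX2, a homeodomain factor of the forebrain, had 54.5% and 27.5% with its WT motif, a gap of 27.0 points with 22 of 23 CpGs higher. Run 7, the only run with enough reads of it in both pools, gave 54.1% and 49.5%, a gap of 4.57 points (interval −14.7 to 23.7) with 3 of 18 CpGs higher. PAX7.2 WT had 58.5% and 87.4% over its 18 upstream CpGs, a gap of −28.9 points, and the glucocorticoid receptor (GR) WT fragment 32.4% and 50.04%, a gap of −17.6 points (interval −40.9 to 6.603). Runs 1, 2 and 5 gave 100% of the −SssI upstream reads of PAX7.2 WT. Of its +SssI upstream reads, run 5 gave 0.784% and run 4 36.0%. The lowest Sc gap was that of GATA, the motif of the GATA zinc finger factors, with 61.8% and 81.3%, a gap of −19.5 points (interval −24.9 to −14.0), followed by PU.1, an ETS-domain factor of blood cells, with 55.8% and 71.6%. PAX7.1 Sc had 58.7% and 69.7%, a gap of −10.97 points (interval −22.9 to 0.190). Run 4 gave 100% of its +SssI upstream reads, and runs 1, 2 and 5 gave 91.4% of the −SssI ones. Within run 4 its gap was 1.44 points (interval −16.6 to 19.9). The PU.1 Sc gap was −0.952 points in run 4 (interval −19.1 to 17.1) and −10.6 in run 5 (interval −23.3 to 0.904). The GATA Sc gap was negative in both runs, −17.4 points in run 4 (interval −36.8 to 3.51) and −13.6 in run 5 (interval −19.9 to −6.47).

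Groups of motifs differed less in their means than fragments did within a group. Forkhead and nuclear receptor motifs had a mean gap of 18.7 points over 5 Sc fragments and −3.94 over 4 WT fragments. Homeodomain, paired and GATA motifs had 0.429 points over 4 Sc and −2.74 over 4 WT fragments, and the 2 Sc and 3 WT fragments of the other motifs 7.34 and 8.88. In each of these groups the gaps of single Sc fragments spanned more than 30 points.

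The gap of the WT fragment was set against that of its Sc partner for 29 motifs, which asks whether an intact motif changed how much of the starting state was left. The WT gap was lower by 7.68 points on average (median −7.39, SD over motifs 27.3), with a range from −63.7 to 43.0. The interval of this difference lay below 0 in 10 motifs, above 0 in 8 and held 0 in 11. At single CpGs, a Wald test of the difference between the WT and Sc gaps in methylated share, with Benjamini-Hochberg adjustment, called 183 of 681 CpGs higher at WT (26.9%) and 260 lower (38.2%). Motifs thus went both ways, and their spread was larger than the mean.

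The lowest values were those of ER (−63.7 points), PAX7.2 (−49.8), N-MYC (−48.0) and KAISO (−39.98), and the highest those of NRF1 (43.0), KLF7 (33.7), PU.1 (28.5) and CREB (25.4). For OCT4SOX2 the WT gap was 19.4 points lower than the Sc gap (difference −19.4, interval −35.1 to −9.26). For REST, KLF4, SOX2 and CTCF.1 the interval of the difference held 0. The upstream reads of SOX2 WT all came from run 4, and those of SOX2 Sc from other runs. For CTCF.2 it lay above 0, at 20.2 points (interval 6.84 to 37.5).

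Within run 4, the same difference could be taken for 19 motifs and averaged −16.3 points (median −19.1), with 13 of 19 lower at WT. 52 of 306 CpGs were higher and 127 lower. In run 5 the balance turned, with 52 of 152 CpGs higher and 20 lower. It was near even at 50 or more reads (142 higher, 132 lower) and without +SssI run 4 (171 higher, 162 lower). In run 4, 13 of the 19 motifs had the sign of their pooled value. RUNX1, a factor of blood formation, had −35.8 points in the pools and 63.8 in run 4, and KLF7 33.7 in the pools and −34.1 in run 4, over 6 CpGs. KLF4 had −1.45 points in the pools and −76.1 in run 4. CREB had 25.4 points in the pools and −0.426 in run 4, over 19 CpGs, while PU.1 had 28.5 in the pools and 28.5 in run 4. In this run the WT fragments lay below their Sc partners by 26.6 points in the +SssI condition, in 20 of 25 motifs, and by 5.16 points in the −SssI condition, in 12 of 23. In run 5 these distances were 4.27 points over 19 motifs and 6.40 points over 13. The levels behind these distances were not taken over the same CpGs. In +SssI run 4, REST had 97.7% over 6 CpGs with its Sc motif and 7.73% over 24 with its WT motif. E2F1 had 92.6% over 7 CpGs and 27.3% over 25. The part of CpG position in the distances was not tested.

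**Figure D4:**
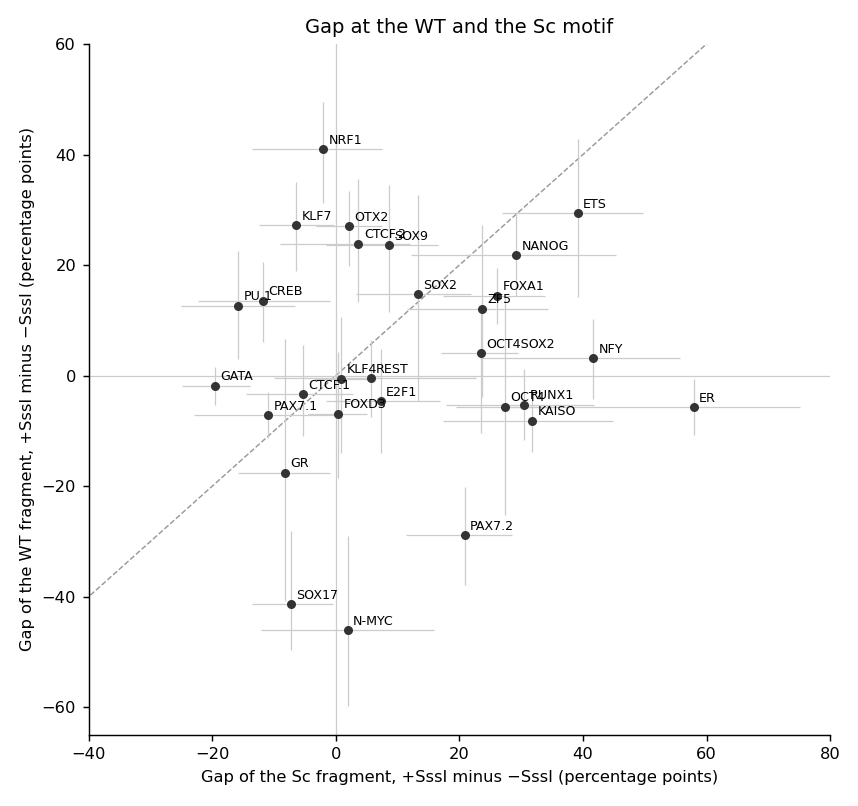
Gap (+SssI minus −SssI, percentage points) of the WT fragment against that of the Sc fragment for 29 motifs, with 95% intervals from counting error. Points below the diagonal have a lower gap with the intact motif, such as ER, PAX7.2, N-MYC and KAISO, and points above it a higher one, such as NRF1 and KLF7.

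In neuronal progenitors (NPs) differentiated from such cells in vitro, more gaps lay near 0. Sc fragments had a mean gap of −3.29 points in NPs, within 10 points of 0 in 28 of 30 fragments, and WT fragments −5.50, within 10 points in 21 of 30. The corresponding count in ESCs was 13 for each kind. Levels in NPs were high from either start, 86.6% and 89.9% on average in Sc fragments and 77.2% and 82.7% in WT fragments. The fragment without motif had a gap of −3.30 points there.

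The gap was higher in ESCs than in NPs in 45 of 61 fragments (23 Sc, 21 WT and the one without motif), by 14.4 points on average in Sc and 9.02 in WT fragments. At single CpGs, the same Wald test called 678 of 1438 higher in ESCs (47.1%) and 279 lower (19.4%). The fragments with the most positive differences were ER Sc (58.3 points), NRF1 WT (48.1), FOXA1 WT (42.0) and RUNX1 Sc (38.1), FOXA1 being a forkhead factor of endoderm. N-MYC WT (−58.5), PAX7.2 WT (−30.1), CTCF.1 WT (−20.6) and GATA Sc (−19.97) had the most negative ones. SOX17 WT kept a large negative gap in NPs, with 37.1% in the +SssI condition and 92.8% in the −SssI condition. CTCF.1 WT had 65% and 47.7% in NPs, the largest positive gap there (17.3 points, interval 9.76 to 24.5), and KLF4 Sc 61.1% and 89.4%. Each NP condition was also a single pool.

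**Figure D5:**
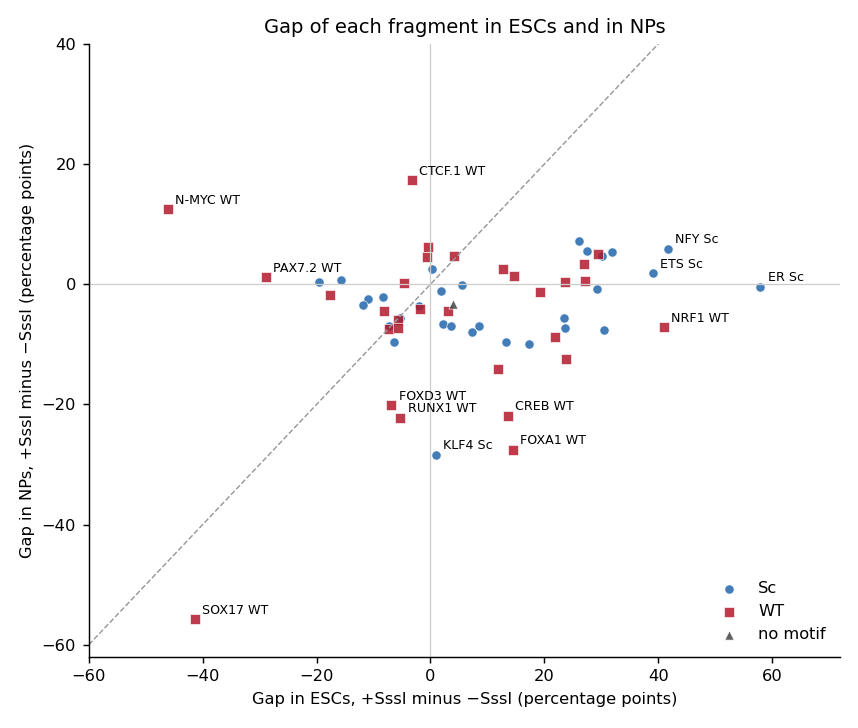
Gap (+SssI minus −SssI, percentage points) of each of 61 fragments in NPs against its gap in ESCs. Gaps of Sc fragments spread from −19.5 to 57.9 points in ESCs, and 28 of 30 lie within 10 points of 0 in NPs, with KLF4 Sc at −28.4 and SOX17 WT at −55.7 set apart.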

How the data were processed

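Methylated and unmethylated read counts per fragment, CpG and run were taken from the tables the authors deposited, which list every run of a pool together. Per the study's methods, reads were trimmed (Trim Galore 0.4.4), assigned to fragments with 0 mismatches, mapped with Bismark (version 0.20.0) and Bowtie2, filtered on non-CG methylation and deduplicated by molecular identifier, and biological and technical replicates were pooled. A count is thus a molecule as far as these identifiers resolve it. Positions are relative to the motif's 5′ end. Fragment names were matched between tables by hand. FOXD3 has 2 Sc fragments, and the first was paired with the WT.

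Reads were summed over runs, and CpGs from −300 to 260 with at least 10 reads in both conditions were kept. Tests were Fisher's exact test (two-sided), a Wald test of the difference between 2 gaps in methylated share with 1 methylated and 1 unmethylated read added to each, and a quasi-binomial test with the run as the unit, each with Benjamini-Hochberg adjustment (Python 3.11.15, scipy 1.17.1, numpy 2.4.6, pandas 2.3.3). A call needed an adjusted p under 0.05 and 10 points. Intervals are 95% Wilson intervals for levels and Newcombe intervals for differences. On simulated reads with 200 of 1438 CpGs raised by 40 points, Fisher's test called 191 of them and 9 others. Of the Newcombe intervals of single CpGs, 94.1% held the true difference. These reads were drawn independently and without a spread between runs. The simulation therefore does not show how the intervals of fragment gaps, or calls on pools of unlike runs, perform.

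Fragments named are both of CTCF.1, CTCF.2, REST, KLF4, SOX2, OCT4, OCT4SOX2 and NRF1, the one without motif, the 4 with the highest and lowest gap of each kind, and the 4 motifs with the largest difference between WT and Sc in each direction. RUNX1, FOXA1 and others outside this rule in the comparisons within runs and with NPs were chosen after their values were seen. Fragments, groups of motifs and tests were chosen with earlier results of these data known, and the comparisons within run 4 and run 5 and over their common CpGs and without runs 1 and 2 after seeing the data.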

Additional observations from a re-analysis of the deposited data

Results flagged for a closer look

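The gap between the +SssI and −SssI conditions differed between ESCs and NPs at single CpGs by a test of the difference itself, with 678 CpGs higher and 279 lower in ESCs of 1438. It also differed between WT and Sc fragments of the same motif, with 183 CpGs higher and 260 lower at WT of 681. Both are Wald tests on reads of 1 pool per condition, so they compare these pools and take no account of the spread between runs.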

How the results depend on the processing

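With 1 pool per condition, and no label naming the runs as biological repeats, runs stood in for replicates where one was left out. The mean gap, 11.1 points in Sc and 3.46 in WT fragments, became 8.66 and 0.820 as a share of reads over all CpGs, 6.85 and 7.34 at 50 or more reads (with 274 CpGs in place of 443 called between WT and Sc, 142 higher and 132 lower), and 10.1 and 0.883 with the run number as a replicate block. Upstream CpGs alone gave 0.318 for WT, and downstream CpGs 16.9 for Sc and 15.7 for WT fragments. Counting the look-alike −SssI runs once gave 13.7 for Sc, and leaving out −SssI runs 1 and 2 gave 14.0. Run 4 alone gave 22.6 for Sc, 310 higher and 185 lower CpGs, 17 regions and 179 CpGs called between WT and Sc (52 higher at WT, 127 lower). Run 5 alone reversed the means to −1.41 and −0.509, with 124 higher and 196 lower CpGs, 4 regions, 4 intervals above 0 and 72 CpGs called between WT and Sc (52 higher, 20 lower). A minimum of 20 points left 192 lower CpGs, and the test with runs as the unit called 0 and 0.

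Leaving out each run in turn gave 195 to 638 higher and 179 to 449 lower CpGs, 9 to 32 fragments with a region of higher methylation, 8 to 28 with an interval above 0, 216 to 451 CpGs called between WT and Sc, and mean gaps of −3.06 to 14.4 points in Sc and −8.86 to 13.7 in WT fragments. Without −SssI run 4 the means were −3.06 and −8.86 over the 26 Sc and 22 WT fragments left, with 195 higher CpGs, and without +SssI run 5 that of WT fragments was −3.19. Without +SssI run 4 they were 14.4 and 13.7, with 179 lower CpGs. The cause was not tested. The same run numbers occur in both pools, but no label says that they mark a shared batch.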
